A study of Drosophila melanogaster with 12 samples.

Results

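Salivary glands of Drosophila melanogaster prepupae mutant for E93 were compared with control glands at 12 h after pupariation, over every gene that passed a count filter. The comparison used 6 of the 12 libraries of the series, 3 labelled E93 mutant and 3 labelled control, and 7584 of the 17807 genes in the table. Animals of the mutant group were E93delta12/E93delta13. Control animals carried a single copy of another allele, E93delta1, beside a chromosome marked +, so they are heterozygotes and not wild type. Both groups are w1118 and carry fkh>GFP, a green fluorescent protein reporter driven through fkh, a gene active in salivary glands. All animals were fed cornmeal molasses food and received no treatment, and total RNA was extracted with the NucleoSpin RNA kit. Matching groups at 14 h, also of 3 libraries each, served to estimate the spread between libraries and to show how the 12 h differences stood 2 h later. The purpose stated by the submitters was to see how an E93 null mutation alters the response to ecdysone in glands of late prepupae.

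The larval salivary gland is made of large polyploid secretory cells that first make the glue with which the animal fixes itself to a surface and are then destroyed during metamorphosis. Pulses of the steroid ecdysone time these steps. The hormone binds a heterodimer of EcR and Ultraspiracle, which switches on transcription factors of the early puffs such as Broad, Eip74EF and Eip75B, and these in turn act on later genes. E93, named Eip93F in the annotation, encodes a DNA-binding protein of the Pipsqueak family that is induced in the prepupal gland by the late pulse and is required for the normal destruction of the gland. In other tissues it is known as the factor that specifies adult development.

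Total counts were 6977403 to 9277965 in the mutants and 7588162 to 8534529 in the controls. Thus 3 counts, the most that a gene listed at 0 could plausibly hide, came to 0.323 to 0.43 per 1000000 total counts of a library. CPM as given here is the count per 1000000 counts on library sizes scaled by edgeR's TMM factors. These factors were 0.7537 to 0.9425 at 12 h, so the floor is somewhat higher in CPM. This floor covers counting error only. Correlations of log2 CPM between replicates ran from 0.947 to 0.969 in the mutants and from 0.946 to 0.975 in the controls. The first principal component of the 6 libraries held 45.6% of the variance and separated the genotypes, with the mutants at 48.4, 31.2 and 33.4 and the controls at -55.7, -29.1 and -28.3. Control replicate 1 and mutant replicate 3 stood apart from their partners for more genes than the other libraries did. Control replicate 1 lay at least 2-fold above both of them for 68 of the 597 genes lower in mutants (11.4%, against 5.99% of all genes tested) and at least 2-fold below both for 64 of the 602 genes higher in mutants (10.6%, against 5.81%). Mutant replicate 3 lay at least 2-fold above both partners for 45 of the 602 higher genes (7.48%, against 5.75% of all genes). Control replicate 3 lay as far below both partners for 380 of all genes (5.01%), but for 2 of the 602. Mutant replicate 1 held 48 of the higher genes at such a distance (7.97%, against 2.57%) and had the highest levels of gut-type genes, described with the tissue markers. The labels do not say whether replicates came from separate animals or collections, so p-values measure the spread between these samples, which may be technical. Values and folds that changed by over 1.5 times, or calls that ended, when 1 library was left out are given beside each gene. They are not given for PH4alphaSG1, eyg, Scr, Btk, Hsc70-3, mex1 and Myo31DF.

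The salivary gland origin was checked against genes of the gland. The glue gene Sgs5bis and the late 71E gene Eig71Ec were read at 124 CPM or more in all 6 libraries. The other tested glue genes were at or under 66 CPM in every library. The gland factor fkh, described with the rises that rested on 1 library, lay between 2.07 and 16.6 CPM. The list of salivary gland identity genes, to which fkh belongs, held other calls in both directions. PH4alphaSG1 and eyg were higher (log2 fold change 2.16 and 0.88), and Scr and Btk lower (-1.82 and -0.90). Their edgeR adjusted p was 0.0373 or less, and these calls ended in the fit of 12 h alone. The groups overlapped for Scr. sage, a basic helix-loop-helix factor of the gland, stood at 31.2, 49.5 and 22.2 CPM in the mutants, against 153, 32.1 and 37.5 CPM in the controls. CrebA, which drives secretory capacity, stood at 33.3, 43.8 and 24 CPM in the mutants, against 26.9, 10.7 and 14.2 CPM in the controls. Neither passed the edgeR test, CrebA at an adjusted p of 0.0505. CrebA did pass as higher with DESeq2 (adjusted p = 0.0206), with voom (0.0439) and in edgeR with RLE scaling, other filters or robust dispersion, as well as without control replicate 1 (log2 fold change 1.39, edgeR adjusted p = 0.00439) or mutant replicate 3 (1.16, 0.0281). Of the marker lists of other tissues, those of muscle (12 tested), fat body (10), neurons and glia (7) and hemocytes (4) had 0 members that passed the test, and no germ line member was abundant enough to test. The fat body gene Lsp2, which shares 84.6% of its exon length with genes of the opposite strand, stood at 44.8, 77.5 and 51.4 CPM in the mutants, against 78.4, 42.6 and 93.3 CPM in the controls. bt, the muscle list's most abundant member, stood at 1313, 1050 and 1336 CPM in the mutants, against 310, 1225 and 1313 CPM in the controls. The other 5 marker lists each had 1 member that passed, in every case as higher, and none of these 5 calls held with every library left out. Summed over all 18 midgut markers, of which 6 were abundant enough to test, the level was 350, 88.4 and 89.7 CPM in the mutants and 58.3, 58.1 and 73.6 CPM in the controls. The called midgut member was mesh, a smooth septate junction gene, at 135, 12.4 and 1.13 CPM in the mutants, against 1.53, 0.576 and 1.56 CPM in the controls (edgeR adjusted p = 0.0487). Without mutant replicate 1 its log2 fold change was 2.48 in place of 5.33 (adjusted p = 0.307), and the call also ended without any 1 of the controls of either time, in the fit of 12 h alone and with voom. Mutant replicate 2 also held more mesh than any control. The other tested midgut members were not called and were highest in mutant replicate 1. Among them mex1 stood at 10.1, 7.15 and 5.64 CPM in the mutants, against 1.15, 2.02 and 3.11 CPM in the controls. It passed in the fit of 12 h alone (edgeR adjusted p = 0.0426). At 14 h mex1 and Myo31DF passed as higher (log2 fold change 3.31 and 1.30, edgeR adjusted p = 0.0395 and 0.000628). Best2, a bestrophin channel gene and 1 of 2 tested members of the Malpighian tubule list, stood at 26.6, 32.2 and 37.9 CPM in the mutants, against 6.52, 18.2 and 20.9 CPM in the controls (log2 fold change 1.09, SE 0.33, and 0.66 without control replicate 1). sro, an ecdysone synthesis gene and the single tested member of the ring gland list, stood at 2.4, 4.29 and 2.09 CPM in the mutants, against 0.767, 0.864 and 0.864 CPM in the controls (log2 fold change 1.81, SE 0.49). wg, the Wnt ligand and 1 of 4 tested members of the imaginal ring and disc list, stood at 6.4, 3.29 and 4.19 CPM in the mutants, against 0.895, 1.3 and 0.864 CPM in the controls (log2 fold change 2.16, SE 0.54). The groups did not overlap for these 3 genes, with edgeR adjusted p of 0.0433 or less, but their calls were near the threshold. That of Best2 ended without any 1 of 11 libraries, control replicate 3 being the exception. That of sro ended without mutant replicate 2 or any 1 of the 12 h controls, that of wg without mutant replicate 1 or control replicate 1 or 3, and those of Best2 and sro in the fit of 12 h alone. The called member of the epidermis list, 1 of 8 tested, was TwdlE, described with the rises that rested on 1 library. The part of other tissues in the results was not tested. In bulk RNA, fewer cells of a type and less RNA per cell cannot be told apart.

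Transcripts counted over Eip93F (FBgn0264490, chromosome arm 3R, 21949114 to 22014539 on the plus strand, build BDGP6) were examined first as a check of the labels. They stood at 4053, 4308 and 3865 CPM in the mutants, against 1174, 1915 and 2075 CPM in the controls. All mutant libraries lay above all control libraries, and the mean level was 2.37-fold higher in mutants (log2 fold change 1.24, SE 0.20, edgeR adjusted p = 0.00178). The counts cover the whole gene and the labels do not place the lesions of the 3 alleles, so they show neither whether the mutant transcripts are intact nor whether protein is made.

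Of the 7584 genes tested, 1199 (15.8%) passed the edgeR quasi-likelihood test at a Benjamini-Hochberg adjusted p under 0.05, and these are the genes called here. They divided almost evenly into 602 higher (7.94%) and 597 lower (7.87%) in mutants, around a median log2 fold change of 0.01 over all genes. The rises were larger than the falls, with a median of 2.94-fold for genes called higher and 2.2-fold, control over mutant, for genes called lower. At least 2-fold changes numbered 490 higher (6.46% of all genes) and 351 lower (4.63%). At 8-fold or more there were 70 higher and 43 lower genes, and at 32-fold or more 20 and 15. The genes called higher took 8.73, 8.24 and 9.23% of all counts in the mutants and 2.71, 3.03 and 3.18% in the controls, while the genes called lower took 6.92, 7.04 and 6.26% in the mutants and 19, 14.7 and 14.4% in the controls. The calls were more frequent among abundant genes, at 24.9% of the genes in the top quartile of abundance and 5.7% of those in the lowest. The 3 mutant and 3 control values did not overlap for 2101 genes, or 27.7%, and 566 of the genes called higher and 567 of those called lower were among them. With each of the 12 libraries left out in turn, 284 of the 602 (47.2%) and 314 of the 597 (52.6%) stayed called every time. The number called was lowest without mutant replicate 1 (798). A fit of the 6 libraries of 12 h alone called 459 of 6400 genes (7.17%).

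**Figure D1:**
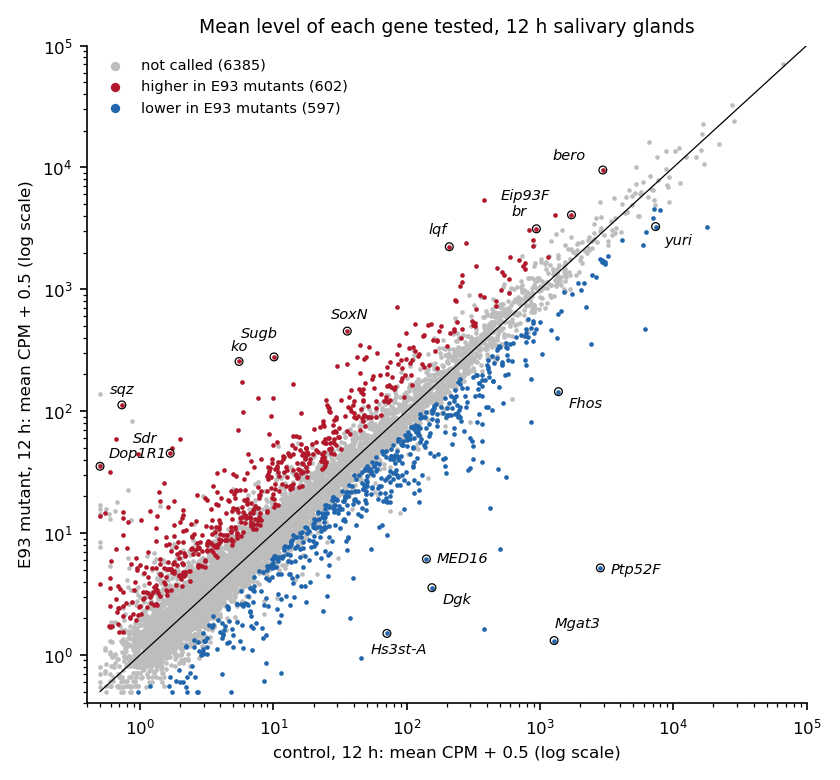
Each point is a gene, placed by its mean CPM + 0.5 over 3 libraries in E93 mutants (vertical log axis) and in controls (horizontal log axis), with genes called higher in red, called lower in blue and the line of equality in black. Mgat3 and Ptp52F lie far below the line and Dop1R1, sqz and ko far above it, among 602 genes called higher and 597 called lower.

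For 6 of the genes with the largest falls by fold the mutants held a small fraction of the control level. Mgat3 (FBgn0051849, chromosome arm 2L, 13180398 to 13182596 on the minus strand), named for the mammalian enzyme that adds a bisecting N-acetylglucosamine to N-glycans, stood at 0.16, 1.14 and 1.13 CPM in the mutants, against 760, 1535 and 1528 CPM in the controls (log2 fold change -10.58, SE 0.48). Ptp52F (FBgn0034085, chromosome arm 2R, 16171112 to 16178307 on the minus strand), a receptor tyrosine phosphatase known from axon guidance and from the ecdysone response of dying tissue, stood at 7.04, 6.01 and 0.966 CPM in the mutants, against 2495, 2936 and 3076 CPM in the controls (log2 fold change -9.23, SE 0.63). The mutant libraries thus held at most 1.14 CPM of Mgat3 and 7.04 CPM of Ptp52F, while no control held less than 760 and 2495 CPM. Hs3st-A, a heparan sulfate 3-O-sulfotransferase, stood at 1.44, 1.57 and 0 CPM in the mutants, against 78.4, 48.1 and 84.9 CPM in the controls (log2 fold change -6.09, SE 0.54, and -6.82 with limma's voom). Dgk, a diacylglycerol kinase that removes the second messenger diacylglycerol, stood at 5.6, 2.29 and 1.29 CPM in the mutants, against 190, 108 and 165 CPM in the controls (log2 fold change -5.65, SE 0.44, and -6.40 without mutant replicate 1). Its mutant values were spread over a wider range than those of MED16, a tail subunit of the Mediator complex that links activators to RNA polymerase II, which stood at 6.08, 6.44 and 4.35 CPM in the mutants, against 129, 133 and 157 CPM in the controls (log2 fold change -4.63, SE 0.19). Dh31-R, the receptor of the diuretic hormone Dh31, was a low-abundance member of this group, listed at 0 in 2 mutant libraries and at 0.322 CPM in the other, against 10.6, 6.63 and 6.74 CPM in the controls (log2 fold change -6.09, SE 0.58, and -9.10 without mutant replicate 3). The largest edgeR adjusted p of these 6 genes was 2.8e-05. Mgat3 was 1 of 3 tested genes that averaged under 1 CPM in the mutants and at least 10 CPM in the controls, the others being CG15406 and CG31760, named after their values were seen. In the other direction 30 tested genes, called or not, did so.

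Further falls of over 4-fold held in all 12 leave-outs. Ppat-Dpck, a bifunctional enzyme of coenzyme A synthesis, stood at 31.4, 33 and 20.6 CPM in the mutants, against 794, 389 and 489 CPM in the controls (log2 fold change -4.30, SE 0.30), but 80.9% of its exon length is shared with genes of the opposite strand, whose reads cannot be told apart where the counting did not use strand. wake, which acts in the clock control of sleep in neurons, stood at 41.9, 41.5 and 29.8 CPM in the mutants, against 331, 354 and 423 CPM in the controls (log2 fold change -3.29, SE 0.22). Fhos, a formin that assembles actin filaments, stood at 141, 153 and 137 CPM in the mutants, against 1059, 1598 and 1466 CPM in the controls (log2 fold change -3.26, SE 0.19). The lowest control value of Fhos, 1059 CPM, was thus several times its highest mutant value of 153 CPM. klar, a KASH protein that positions nuclei and lipid droplets, stood at 68.8, 60.4 and 40.1 CPM in the mutants, against 370, 324 and 398 CPM in the controls (log2 fold change -2.69, SE 0.23). neur, the E3 ubiquitin ligase that activates Notch ligands, fell at a lower level, to 3.2, 1.72 and 2.74 CPM in the mutants, against 13.2, 28.2 and 32.7 CPM in the controls (log2 fold change -3.27, SE 0.38), with 38.8% of its exons overlapped on the opposite strand. For klar and neur too no mutant library came near the lowest control. mtgo had 40.2 ± 6.9 CPM in the mutants and 316 ± 85.1 CPM in the controls (SD, n = 3 each; log2 fold change -2.97, SE 0.24). plum, a transmembrane protein of the immunoglobulin superfamily, had 2.22 ± 0.856 CPM in the mutants and 16.9 ± 9.38 CPM in the controls (SD, n = 3 each; log2 fold change -2.92, SE 0.44). Plum had the more variable controls of these. spz, the ligand of the Toll receptor, stood at 19.5, 18.3 and 28.2 CPM in the mutants, against 68.2, 147 and 153 CPM in the controls (log2 fold change -2.48, SE 0.29). Lsd-2, the perilipin of lipid droplets, stood at 96.7, 112 and 93.9 CPM in the mutants, against 553, 329 and 415 CPM in the controls (log2 fold change -2.10, SE 0.19). By edgeR, these 9 genes had an adjusted p of 0.00093 or less.

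**Figure D2:**
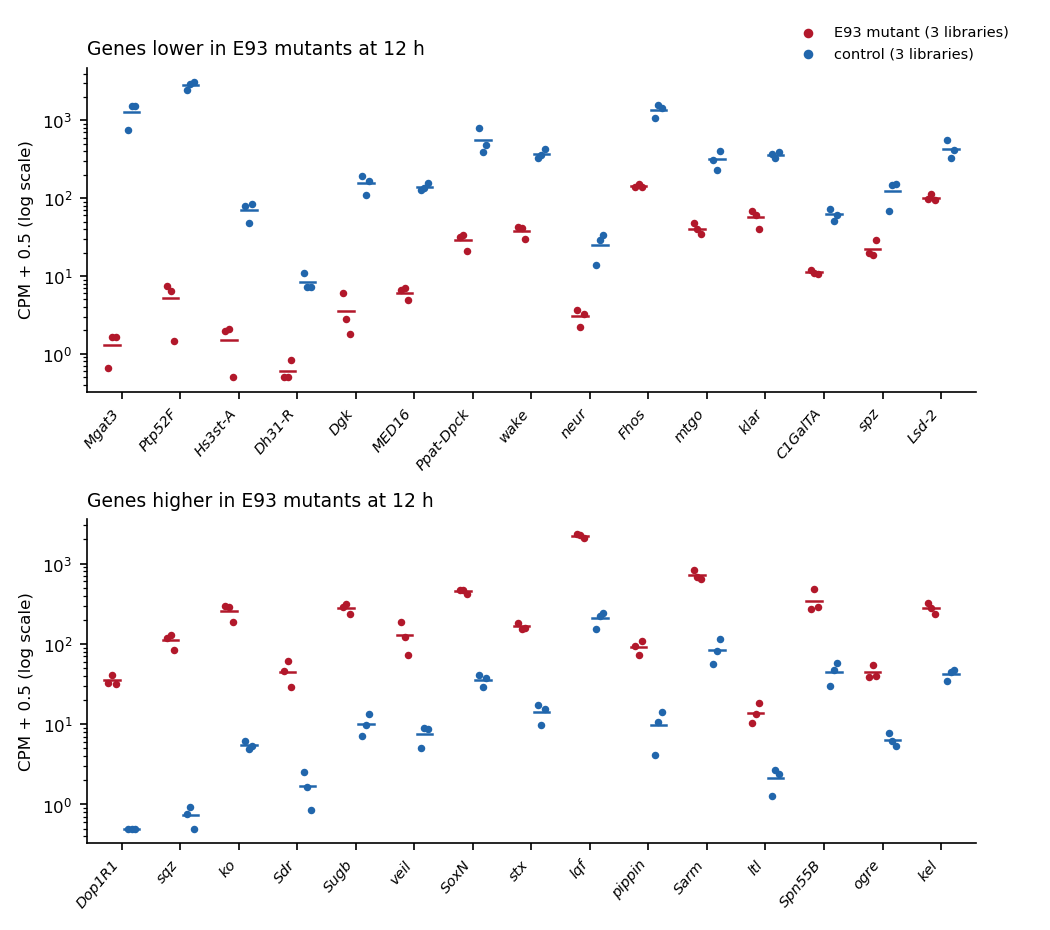
Level of 15 genes called lower (top) and 15 called higher (bottom) in E93 mutants, as CPM + 0.5 on a log axis, with a point per library and a bar at the mean, mutants in red left of controls in blue. For each of the 30 genes every mutant library lies on the same side of every control library; Dop1R1 was listed at 0 in all 3 controls.

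Several falls were carried in size by control replicate 1. Sema1b, a transmembrane semaphorin, stood at 30.3, 34.3 and 32.4 CPM in the mutants, against 540, 134 and 194 CPM in the controls (log2 fold change -3.16, SE 0.43, and -2.40 without that library). GstT4, a glutathione S-transferase, stood at 33.8, 38.6 and 29.2 CPM in the mutants, against 606, 121 and 162 CPM in the controls (log2 fold change -3.13, SE 0.52, and -2.12 without it). Dsor1, the MAPK kinase of the Ras pathway, stood at 25, 41.8 and 24.3 CPM in the mutants, against 367, 89.2 and 135 CPM in the controls (log2 fold change -2.70, SE 0.44, and -1.94 without it). In all of these the other controls also lay above every mutant, by a smaller factor. knk, which organises chitin in the cuticle, had a log2 fold change of -2.81 (SE 0.55) and of -1.62 without control replicate 1, and shares 64.0% of its exon length with the opposite strand. For Rgk1, a Rgk-family small GTPase, the values were -2.95 (SE 0.66) and -1.50, and for cac, a voltage-gated calcium channel subunit, -2.75 (SE 0.61) and -1.57. The calls of knk, Rgk1 and cac ended in the fit of the 6 libraries of 12 h alone, and that of cac also with limma's voom. Gcna was called lower (edgeR adjusted p = 0.031) from 3.04, 6.58 and 2.09 CPM in the mutants, against 59.9, 6.63 and 8.64 CPM in the controls, and its call ended without control replicate 1 (adjusted p = 0.164) or without mutant replicate 1 or 3, in the fit of 12 h alone and with voom; without mutant replicate 2 its log2 fold change was -3.29 in place of -2.67.

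The sugar-modifying enzymes included genes that fell and, in the lists below, 0 that rose. In the list of N- and O-glycosylation genes 0 of 32 tested members rose and 5 fell (15.6% called, all lower, against 15.8% of all genes in either direction and 7.87% lower), with a median log2 fold change of 0.09 over the list. Besides Mgat3 the members that fell included C1GalTA, which builds core 1 O-glycans, at 11.5, 10.4 and 10.1 CPM in the mutants, against 73.3, 50.3 and 61.2 CPM in the controls (log2 fold change -2.52, SE 0.32). egh, a mannosyltransferase of glycosphingolipid synthesis, stood at 339, 328 and 310 CPM in the mutants, against 463, 582 and 646 CPM in the controls (log2 fold change -0.79, SE 0.16). SiaT, the sialyltransferase, stood at 2.4, 5.29 and 3.7 CPM in the mutants, against 21.6, 11.7 and 6.57 CPM in the controls (log2 fold change -1.80, SE 0.42). Of the 5 falls 4 stayed called with any library left out, and that of SiaT ended in the fit of 12 h alone. In the heparan sulfate and proteoglycan list 0 of 19 rose and 5 fell (26.3% called), with a median of -0.38. The members named below fell by less than 2-fold. Hsepi, the epimerase of heparan sulfate, averaged 16.4 ± 2.6 CPM in the mutants and 28.7 ± 4.87 CPM in the controls, oxt, the xylosyltransferase that starts the chain, averaged 4.27 ± 0.549 CPM in the mutants and 7.92 ± 1.52 CPM in the controls, and Sdc, the core protein Syndecan, averaged 43.1 ± 2.74 CPM in the mutants and 81.3 ± 36.5 CPM in the controls (SD, n = 3 each). Their log2 fold changes were -0.81, -0.89 and -0.92, with edgeR adjusted p of 0.0268 or less. All 3 calls ended in the fit of 12 h alone, and that of Sdc also without mutant replicate 1 or 2.

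Of 14 tyrosine phosphatase genes 0 rose and 4 fell (28.6% called; median -0.15), and all 4 calls held with any library left out. Besides Ptp52F they were Ptp61F, an attenuator of Jak/Stat signalling, at 17.1, 10.6 and 18.7 CPM in the mutants, against 41.6, 40.5 and 54.4 CPM in the controls (log2 fold change -1.56, SE 0.22). Ptp99A, a receptor type enzyme of axon guidance, stood at 38.6, 29.3 and 25.3 CPM in the mutants, against 116, 73.9 and 103 CPM in the controls (log2 fold change -1.66, SE 0.25). Pez stood at 105, 102 and 75.4 CPM in the mutants, against 189, 237 and 261 CPM in the controls (log2 fold change -1.28, SE 0.18). In each case the highest mutant library was below the lowest control. Enzymes of diacylglycerol and phosphoinositides moved in both directions, 4 up and 3 down of 26 (26.9% called; median 0.03). Plc21C, a phospholipase C, stood at 69.8, 85.4 and 45.1 CPM in the mutants, against 153, 256 and 165 CPM in the controls (log2 fold change -1.52, SE 0.27). sktl, a phosphatidylinositol 4-phosphate 5-kinase, stood at 650, 836 and 516 CPM in the mutants, against 1652, 1144 and 1486 CPM in the controls (log2 fold change -1.10, SE 0.23). Both genes fell in all 3 mutant libraries relative to every control. Pi3K68D, a class II phosphoinositide 3-kinase, rose to 73, 47.1 and 91 CPM in the mutants, against 27.5, 14.7 and 17.1 CPM in the controls (log2 fold change 1.83, SE 0.27). Of the Mediator subunits 2 of 28 rose and 2 fell (14.3% called, below the 15.8% of all genes). MED15, another tail subunit, stood at 40.2, 59.1 and 30.3 CPM in the mutants, against 12.2, 16.6 and 18.8 CPM in the controls (log2 fold change 1.45, SE 0.25), on the other side of its controls from MED16. In the edgeR fit the highest adjusted p of these 7 genes beside Ptp52F and MED16 was 0.00761.

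**Figure D3:**
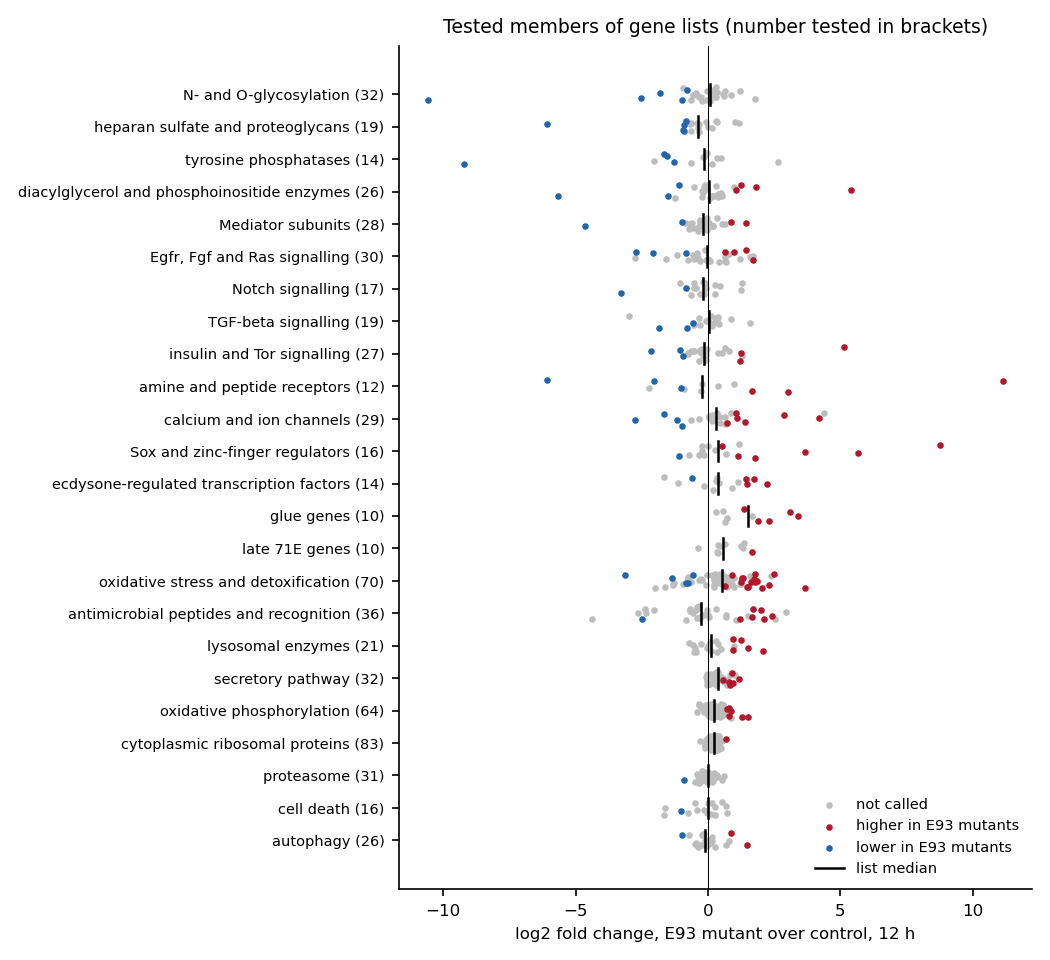
Tested members of 24 gene lists (rows, number tested in brackets) by log2 fold change of E93 mutants over controls at 12 h, with genes called higher in red, called lower in blue, others in grey and a black bar at each list's median. The tyrosine phosphatase, heparan sulfate and glycosylation lists hold calls below 0 only, while the glue genes have a median of 1.51 against 0.01 for all genes.

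Besides Ptp52F, the 10 largest falls in CPM included transcripts that remained abundant in the mutants. yuri, a coiled-coil protein known from gravity sensing and spermatid structure, stood at 3116, 4125 and 2566 CPM in the mutants, against 6786, 7570 and 7728 CPM in the controls (log2 fold change -1.17, SE 0.22). NLaz, a secreted lipocalin homologous to apolipoprotein D, stood at 1817, 2773 and 2291 CPM in the mutants, against 5710, 5400 and 6560 CPM in the controls (log2 fold change -1.36, SE 0.23). fax, an axonal protein that interacts with Abl, stood at 1737, 1777 and 1306 CPM in the mutants, against 3379, 2623 and 3155 CPM in the controls (log2 fold change -0.93, SE 0.18). The mean of these 3 genes in mutants was 0.444, 0.389 and 0.526 of the mean in controls, and their calls held in every leave-out, with edgeR adjusted p of 0.0045 or less. Mmp1, a matrix metalloproteinase, stood at 3824, 4702 and 2994 CPM in the mutants, against 8809, 5894 and 6279 CPM in the controls (log2 fold change -0.87, SE 0.21). Ag5r, a secreted protein of the antigen 5 family, stood at 4852, 5180 and 3355 CPM in the mutants, against 7397, 8670 and 7796 CPM in the controls (log2 fold change -0.83, SE 0.20). Lerp, a receptor that sorts lysosomal enzymes, stood at 1706, 2010 and 1339 CPM in the mutants, against 3716, 2516 and 3007 CPM in the controls (log2 fold change -0.87, SE 0.20). The ranges of these 3 did not overlap either, but their calls (edgeR adjusted p of 0.0165 or less) ended in the fit of 12 h alone, that of Mmp1 also without mutant replicate 1 or 3 and that of Ag5r without control replicate 2.

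Several signalling lists held calls in both directions, to be read beside the 15.8% called of all genes. In the Egfr, Fgf and Ras list 4 rose and 3 fell of 30 (23.3% called; median -0.05). vn, the neuregulin-like ligand of Egfr, stood at 8.96, 9.58 and 5.96 CPM in the mutants, against 40.8, 27.8 and 35.1 CPM in the controls (log2 fold change -2.08, SE 0.21). Pvr, the receptor for Pdgf- and Vegf-related factors, stood at 63.1, 57.8 and 45.1 CPM in the mutants, against 17, 21.3 and 22.8 CPM in the controls (log2 fold change 1.44, SE 0.20). In the TGF-beta list 0 rose and 3 fell of 19 (15.8% called), among them tok, a Tolloid-family protease, at 8.32, 5.01 and 6.44 CPM in the mutants, against 25.7, 20.2 and 25.8 CPM in the controls (log2 fold change -1.86, SE 0.24). The ratio of the mutant to the control mean was thus 0.237 for vn and 0.276 for tok, and 2.72 for Pvr. In the Wnt and Hedgehog list 2 rose and 3 fell of 22 (22.7% called), including the receptor fz, at 4, 2.86 and 5.48 CPM in the mutants, against 14.8, 9.65 and 13 CPM in the controls (log2 fold change -1.61, SE 0.24). Socs36E, a target and inhibitor of Jak/Stat signalling, rose to 31.9, 13.9 and 19.7 CPM in the mutants, against 3.97, 5.33 and 5.01 CPM in the controls (log2 fold change 2.19, SE 0.43). The insulin and Tor list had 3 rises and 3 falls among 27 (22.2% called; median -0.15). Akt, the kinase downstream of the insulin receptor, stood at 196, 165 and 173 CPM in the mutants, against 246, 394 and 465 CPM in the controls (log2 fold change -1.05, SE 0.20). S6k, the ribosomal protein S6 kinase, stood at 51.4, 41.2 and 31.4 CPM in the mutants, against 85.2, 72.8 and 79.5 CPM in the controls (log2 fold change -0.94, SE 0.18). REPTOR, the transcription factor that Tor complex 1 keeps inactive, stood at 65.6, 60.6 and 75.1 CPM in the mutants, against 24.3, 27.2 and 35.1 CPM in the controls (log2 fold change 1.22, SE 0.17). Adjusted p-values from edgeR went up to 0.00537 for these 8 genes. Of the receptors for amines and peptides 3 rose and 3 fell of 12, 50% of a list that consists mostly of genes with few counts, and 2 of the 6 calls, for Dop1R1 and Dh31-R, held in every leave-out.

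The largest rises by fold included genes listed at 0 or at low levels in the controls. Dop1R1 (FBgn0011582, chromosome arm 3R, 14165379 to 14214810 on the minus strand), a dopamine receptor, stood at 32.3, 41 and 31.1 CPM in the mutants and was listed at 0 in every control, which puts it at least 240-fold higher when the 3 control libraries together are given 3 counts. sqz (FBgn0010768, chromosome arm 3R, 19164211 to 19170576 on the plus strand), a zinc-finger factor of neuronal specification, stood at 119, 130 and 84.7 CPM in the mutants, against 0.256, 0.432 and 0 CPM in the controls (log2 fold change 8.76, SE 0.64, and 9.43 without control replicate 2). ko (FBgn0020294, chromosome arm 3L, 21075581 to 21131159 on the minus strand), a Storkhead-box family protein, stood at 293, 284 and 188 CPM in the mutants, against 5.76, 4.47 and 4.84 CPM in the controls (log2 fold change 5.66, SE 0.26). In all 3 the lowest mutant library was far above the highest control. Sdr, a secreted decoy of the insulin receptor, stood at 45, 60.2 and 28.7 CPM in the mutants, against 2.05, 1.15 and 0.346 CPM in the controls (log2 fold change 5.16, SE 0.40, and 5.77 without control replicate 1). Sugb stood at 286, 312 and 236 CPM in the mutants, against 6.65, 9.36 and 12.8 CPM in the controls (log2 fold change 4.86, SE 0.26), with 36.6% of its exons shared with the opposite strand. The mutants of Sdr and Sugb again lay wholly above their controls. veil, related to 5′-nucleotidases, stood at 187, 122 and 73 CPM in the mutants, against 4.6, 8.5 and 8.3 CPM in the controls (log2 fold change 4.16, SE 0.34), but its exons lie wholly opposite those of another gene. SoxN, a Sox-domain transcription factor known from the nervous system and the epidermis, stood at 469, 474 and 415 CPM in the mutants, against 40.9, 28.2 and 36.6 CPM in the controls (log2 fold change 3.68, SE 0.20). For these 7 genes edgeR gave adjusted p-values up to 6.92e-06. The list of Sox and zinc-finger regulators was chosen with earlier results of these data known. It holds sqz, SoxN and, although a Storkhead-box protein, ko, so its share of calls is no separate evidence. In it 6 rose and 1 fell of 16 (43.8% called, against 15.8% of all genes, with a median of 0.40). Of the 7 calls 5 held in every leave-out. ttk, a BTB zinc-finger repressor, named here after its values were seen, was the fourth stable rise, with 10.1, 11.9 and 8.7 CPM in the mutants, against 4.73, 4.61 and 4.49 CPM in the controls (log2 fold change 1.15, SE 0.21), and bab2, a BTB factor of limb patterning, the fall, with 65.3, 63.1 and 49 CPM in the mutants, against 159, 96.7 and 126 CPM in the controls (log2 fold change -1.10, SE 0.19); their edgeR adjusted p were 0.00359 and 0.00214.

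Rises of 6.68- to 12.1-fold followed in genes with diverse functions. stx, stuxnet, a regulator of Polycomb stability, stood at 182, 155 and 158 CPM in the mutants, against 16.6, 9.36 and 14.9 CPM in the controls (log2 fold change 3.60, SE 0.21). lqf, the endocytic adaptor epsin, stood at 2346, 2251 and 2099 CPM in the mutants, against 154, 224 and 245 CPM in the controls (log2 fold change 3.43, SE 0.19), a gene well expressed in both genotypes. Sarm, an NAD-consuming TIR-domain protein of axon degeneration, stood at 824, 676 and 639 CPM in the mutants, against 56.5, 80.2 and 114 CPM in the controls (log2 fold change 3.09, SE 0.26). kel, a substrate adaptor for Cullin-3 and component of ring canals in the egg chamber, stood at 324, 283 and 234 CPM in the mutants, against 34.5, 44.7 and 46.8 CPM in the controls (log2 fold change 2.74, SE 0.18). No control of these 4 genes was above 245 CPM, and lqf was the only one whose mutants passed 1000 CPM. Spn55B, a serpin, stood at 275, 476 and 289 CPM in the mutants, against 29, 47.1 and 56.9 CPM in the controls (log2 fold change 2.97, SE 0.29). ogre, an innexin of gap junctions, stood at 38.7, 54.2 and 38.8 CPM in the mutants, against 7.29, 5.62 and 4.84 CPM in the controls (log2 fold change 2.88, SE 0.23). Spn55B and ogre had no mutant value near a control value. ltl, a leucine-rich repeat protein, stood at 9.76, 13 and 17.7 CPM in the mutants, against 0.767, 2.16 and 1.9 CPM in the controls (log2 fold change 3.08, SE 0.38). pippin, a sugar carrier, stood at 92.5, 73.2 and 108 CPM in the mutants, against 3.58, 10.2 and 13.7 CPM in the controls (log2 fold change 3.33, SE 0.37), with 79.2% of its exons shared with the opposite strand. The edgeR adjusted p of these 8 genes was 0.000247 or less, and all 8 calls held in every leave-out.

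Among abundant transcripts, bero, a membrane-anchored protein of the Ly6 family, had the largest rise in CPM, with 8181, 10653 and 9705 CPM in the mutants, against 2082, 3638 and 3153 CPM in the controls (log2 fold change 1.69, SE 0.25). PGRP-SB2, a peptidoglycan recognition protein, stood at 3894, 5053 and 3358 CPM in the mutants, against 1996, 865 and 1030 CPM in the controls (log2 fold change 1.66, SE 0.31). Hsp67Bc, a small heat shock protein that works with the autophagy co-chaperone Starvin, stood at 1826, 2716 and 2242 CPM in the mutants, against 1038, 834 and 793 CPM in the controls (log2 fold change 1.35, SE 0.20). In all of these the controls already held 793 CPM or more and the rise was between 2.55- and 3.22-fold. mmy, the UDP-N-acetylglucosamine diphosphorylase that feeds chitin and glycan synthesis, stood at 1197, 1542 and 1164 CPM in the mutants, against 464, 514 and 628 CPM in the controls (log2 fold change 1.28, SE 0.17). lute stood at 1963, 1933 and 1638 CPM in the mutants, against 253, 684 and 842 CPM in the controls (log2 fold change 1.64, SE 0.34), a call that ended in the fit of 12 h alone. For lute control replicate 1 was the lowest. Ugt36D1, a UDP-glycosyltransferase, stood at 2615, 3064 and 1953 CPM in the mutants, against 484, 1028 and 1147 CPM in the controls (log2 fold change 1.52, SE 0.28). By edgeR, these 6 genes had an adjusted p of 0.00662 or less. Ugt36D1 belongs to the list of oxidative stress and detoxification genes, in which 16 rose and 5 fell of 70 (30% called, against 15.8% of all genes; median 0.54). With any library left out 7 of the 16 and 3 of the 5 stayed called. Mutant replicate 3 was at least 2-fold above both partners for 5 of the 16 rises (31.2%, against 7.48% of all genes called higher), and its part in the list's count was not tested. MsrA, a methionine sulfoxide reductase that is also the ecdysone-induced gene of 71CD, stood at 240, 300 and 259 CPM in the mutants, against 31.6, 61.4 and 49.9 CPM in the controls (log2 fold change 2.48, SE 0.22). GstE12, a glutathione S-transferase, stood at 33.5, 28.2 and 34.6 CPM in the mutants, against 9.34, 18.6 and 13 CPM in the controls (log2 fold change 1.24, SE 0.25). Ugt37C1 stood at 4.32, 3.86 and 8.86 CPM in the mutants, against 0.384, 0.72 and 0.173 CPM in the controls (log2 fold change 3.66, SE 0.53). In the other direction Cyp6v1, a cytochrome P450, stood at 131, 162 and 113 CPM in the mutants, against 317, 331 and 399 CPM in the controls (log2 fold change -1.36, SE 0.20). In the edgeR fit the highest adjusted p of these 4 was 0.00545, and GstE12 was named after its values were seen.

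Among the ecdysone-regulated transcription factors, the genes the study was designed around, more members rose than fell. Of 14 tested members 4 rose and 1 fell (35.7% called, against 15.8% of all genes, with a median of 0.38). br, the Broad zinc-finger factors of the prepupal transition, stood at 3561, 2980 and 2854 CPM in the mutants, against 362, 1067 and 1390 CPM in the controls (log2 fold change 1.74, SE 0.36). Eip75B, a nuclear receptor of the early puffs, stood at 1685, 1664 and 1272 CPM in the mutants, against 131, 318 and 539 CPM in the controls (log2 fold change 2.23, SE 0.38). Hr38, an orphan nuclear receptor that can pair with Ultraspiracle, stood at 328, 253 and 220 CPM in the mutants, against 56.3, 98.4 and 141 CPM in the controls (log2 fold change 1.44, SE 0.28). For all 3 the mutants were well separated from the controls, and control replicate 1 was the lowest. Their edgeR adjusted p was 0.00665 or less and held in every leave-out, while the calls of br and Hr38 ended in the fit of 12 h alone. ftz-f1, the competence factor between the pulses, was called higher (edgeR adjusted p = 0.0475) from 23.7, 53.2 and 9.99 CPM in the mutants, against 8.83, 9.8 and 13.1 CPM in the controls, and crol, a zinc-finger factor of the ecdysone response, was called lower (edgeR adjusted p = 0.035) from 368, 292 and 282 CPM in the mutants, against 399, 466 and 557 CPM in the controls. Both calls were marginal. That of ftz-f1 ended without any 1 of 11 libraries and with voom or relative log expression factors, and its ranges overlapped; without mutant replicate 2 its log2 fold change was 0.64 in place of 1.46. That of crol ended without any 1 of 8.

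The other 9 members did not pass the test. Eip74EF, the ETS-domain factor of the early puffs, was read at 3243, 2721 and 2537 CPM in the mutants, against 463, 1589 and 1867 CPM in the controls (edgeR adjusted p = 0.0758), the groups did not overlap, and the gene passed with limma's voom at 1.34 (adjusted p = 0.0494). Hr39, an orphan receptor, was also without overlap, at 465, 443 and 417 CPM in the mutants, against 295, 307 and 386 CPM in the controls (edgeR adjusted p = 0.0823). Sox14, an early target of the receptor, was the most abundant of the list, at 9234, 8898 and 7376 CPM in the mutants, against 4126, 6949 and 9035 CPM in the controls. Its ranges overlapped, as did those of Hr4, a repressor of early genes, at 832, 691 and 577 CPM in the mutants, against 286, 594 and 844 CPM in the controls, and of the receptor Eip78C, at 433, 439 and 396 CPM in the mutants, against 352, 326 and 435 CPM in the controls. The BTB zinc-finger factors ken, mamo, chinmo and ab were at or under 20.1 CPM in every library, and of these mamo was without overlap. Control replicate 1 was the lowest control for br, Eip74EF, Eip75B, Hr4, Hr38, Hr39, Sox14, ftz-f1 and crol. Of the genes for hormone import, receptor and cofactors 0 of 9 passed (median 0.21), as against 15.8% of all genes. The receptor gene EcR stood at 82.6, 88.8 and 60.9 CPM in the mutants, against 78.5, 33 and 53.4 CPM in the controls. Its partner usp stood at 69.9, 58.5 and 60.1 CPM in the mutants, against 68.9, 85.3 and 90.2 CPM in the controls. The coactivator tai stood at 254, 231 and 183 CPM in the mutants, against 158, 77.7 and 143 CPM in the controls (edgeR adjusted p = 0.234, 0.116 and 0.0507). Only tai was without overlap. tai passed as higher with DESeq2 (adjusted p = 0.03), with voom (0.0451) and in edgeR with other filters or robust dispersion. Without control replicate 1 all 3 passed, EcR and tai as higher (log2 fold change 0.79 and 0.95) and usp as lower (-0.54), with edgeR adjusted p of 0.0461, 0.0438 and 0.0257. The hormone importer Oatp74D, the exporter E23, the corepressor Smr, the chaperones Hsc70-4 and Hsp83, and rig had overlapping groups, with edgeR adjusted p between 0.338 and 0.963.

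**Figure D4:**
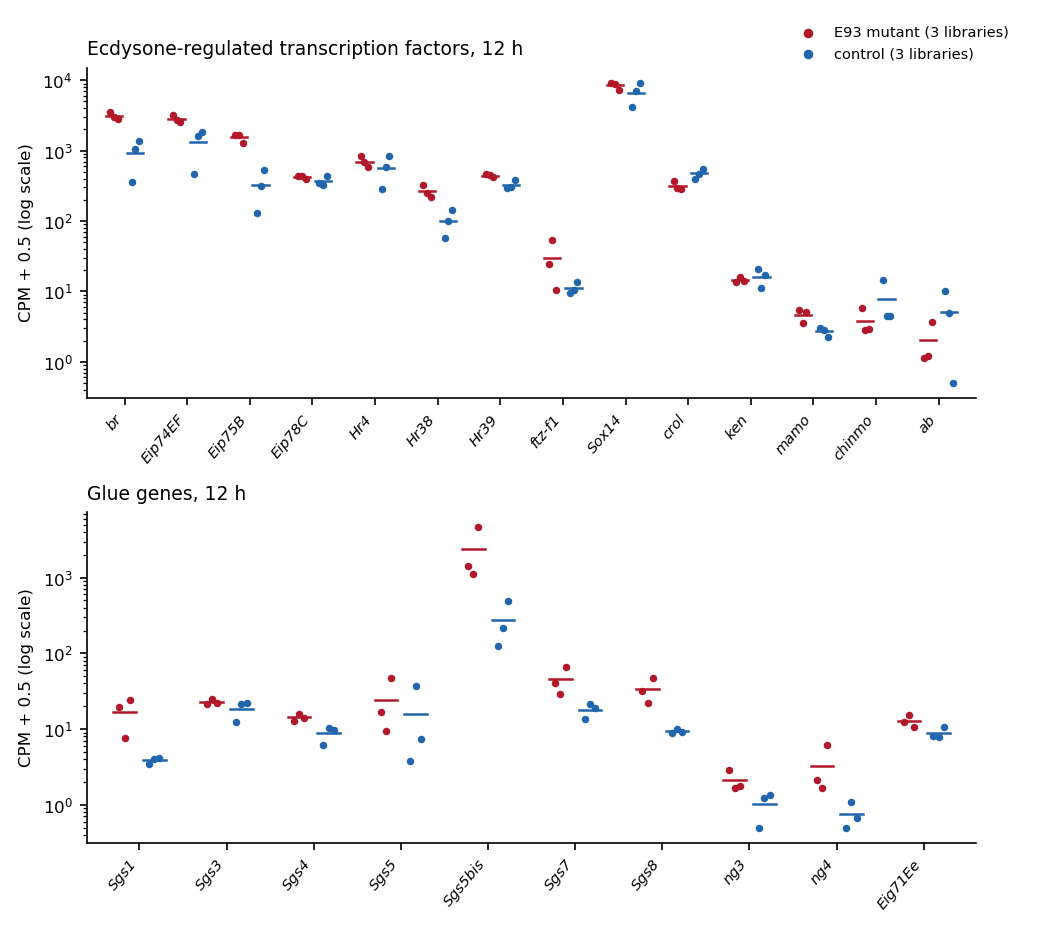
Level of the 14 tested ecdysone-regulated transcription factors (top) and 10 tested glue genes (bottom) as CPM + 0.5 on a log axis, with a point per library and a bar at the mean, E93 mutants in red left of controls in blue. Mutants lie above controls for br, Eip75B and Hr38 without overlap, and 5 of the 10 glue genes were called higher.

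In the lists of glue genes and of secretory pathway genes every called member was higher. Of all genes 15.8% were called and 7.94% were called higher. Of 10 glue genes 5 rose and 0 fell (50% called; median 1.51). Sgs1 stood at 19, 7.15 and 23.4 CPM in the mutants, against 2.94, 3.46 and 3.63 CPM in the controls (log2 fold change 2.30, SE 0.38). Sgs8 stood at 31.7, 21.5 and 47.2 CPM in the mutants, against 8.31, 9.65 and 8.64 CPM in the controls (log2 fold change 1.91, SE 0.33). Sgs5bis stood at 1425, 1124 and 4609 CPM in the mutants, against 124, 215 and 490 CPM in the controls (log2 fold change 3.11, SE 0.62), with mutant replicate 3 above its partners by over 3-fold, so that the value was 2.17 without it, and 3.79 without control replicate 3. Sgs7 was called at 1.36 and lost the call without mutant replicate 3 or control replicate 1 or 3, and in the fit of 12 h alone. Of the late 71E genes, small secreted proteins of the prepupal gland, 1 of 10 rose. This was Eig71Ec, at 1276, 1854 and 1368 CPM in the mutants, against 221, 521 and 691 CPM in the controls (edgeR adjusted p = 0.0389), a call that ended without any 1 of 9 libraries and in the fit of 12 h alone, and control replicate 1 was the lowest control of all 10 genes. Secretory pathway genes had 6 rises and 0 falls of 32 (18.8% called; median 0.39), with gammaCOP, a coat subunit of Golgi vesicles, at 41.5, 37.3 and 45.1 CPM in the mutants, against 26.6, 22 and 21.8 CPM in the controls (log2 fold change 0.81, SE 0.17). Sec13, of the COPII coat, stood at 9.76, 9.58 and 9.5 CPM in the mutants, against 5.12, 5.62 and 5.36 CPM in the controls (log2 fold change 0.84, SE 0.20). In the separate list of unfolded protein response and ER folding, ERp60 and Hsc70-3 were the only called members, both higher. ERp60, a protein disulfide isomerase, stood at 53.3, 60.8 and 80.9 CPM in the mutants, against 34.2, 40.3 and 35.8 CPM in the controls (log2 fold change 0.82, SE 0.17). The last 3 ranges did not overlap, and the calls held in every leave-out but ended in the fit of 12 h alone. Among the glue, secretory and ER folding genes with a fold change given, the edgeR adjusted p did not exceed 0.0224.

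Among lysosomal enzymes 5 rose and 0 fell of 21 (23.8% called; median 0.13). beta-Man, a beta-mannosidase, stood at 234, 275 and 227 CPM in the mutants, against 61.5, 98.1 and 98.7 CPM in the controls (log2 fold change 1.51, SE 0.19). cathD, the aspartic protease cathepsin D, stood at 1042, 1012 and 892 CPM in the mutants, against 348, 626 and 558 CPM in the controls (log2 fold change 0.94, SE 0.20). Npc2a, a sterol carrier of the lysosome lumen, stood at 318, 364 and 203 CPM in the mutants, against 181, 88.9 and 98.9 CPM in the controls (log2 fold change 1.26, SE 0.27). Their groups did not overlap, although the calls of cathD and Npc2a ended in the fit of 12 h alone. Oxidative phosphorylation genes had 6 rises and 0 falls of 64 (9.38% called, below the 15.8% of all genes), led by COX7C, a cytochrome c oxidase subunit, with 105 ± 9.22 CPM in the mutants and 36.9 ± 8.11 CPM in the controls (SD, n = 3 each; log2 fold change 1.51, SE 0.21). Of 83 cytoplasmic ribosomal protein genes 1 was called, and of 31 proteasome genes 1. Ald1, the aldolase of glycolysis, stood at 27.2, 30.7 and 30.4 CPM in the mutants, against 13, 12.8 and 17.1 CPM in the controls (log2 fold change 1.04, SE 0.17). ScsbetaG, a subunit of succinyl-CoA synthetase in the citric acid cycle, fell to 11, 12.2 and 10.3 CPM in the mutants, against 49.6, 37 and 37.5 CPM in the controls (log2 fold change -1.89, SE 0.19). In the list of that cycle 4 other members rose and 1, ScsbetaG, fell of 17 (29.4% called, against 15.8% of all genes, with a median of 0.16). Most of the 4 rises were highest in mutant replicate 1, the library with the highest levels of gut-type genes. Most of their calls also ended in the fit of 12 h alone. Lipid genes had 3 rises and 4 falls of 19 (36.8% called), and besides Lsd-2 the falls included whd, the carnitine palmitoyltransferase that brings fatty acids into mitochondria, at 31.1, 24.2 and 16.6 CPM in the mutants, against 49.2, 48.1 and 51 CPM in the controls (log2 fold change -1.05, SE 0.20). Adjusted p-values from edgeR went up to 0.00871 for these 7 genes.

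Cell death and autophagy genes were called no more often than all genes tested, of which 15.8% were called. Of 16 cell death genes 0 rose and 1 fell (6.25% called), namely rpr, the activator of apoptosis reaper, at 125, 198 and 191 CPM in the mutants, against 461, 307 and 271 CPM in the controls (log2 fold change -1.02, SE 0.28, edgeR adjusted p = 0.03). Its ranges did not overlap, but the call ended without mutant replicate 1 or 3 or control replicate 1 and in the fit of 12 h alone. Of 26 autophagy genes 2 rose and 1 fell (11.5% called), the fall being Atg4b, a protease that processes Atg8, at 282, 326 and 257 CPM in the mutants, against 546, 463 and 673 CPM in the controls (log2 fold change -0.96, SE 0.19, edgeR adjusted p = 0.00498). In the list of antimicrobial peptides and recognition 6 rose and 1, spz, fell of 36 (19.4% called; median -0.25). pirk, an inhibitor of the Imd pathway, stood at 46.7, 39 and 71.8 CPM in the mutants, against 5.5, 13.1 and 21.1 CPM in the controls (log2 fold change 2.00, SE 0.41, edgeR adjusted p = 0.00627), and its call ended in the fit of 12 h alone. Among cell cycle genes Cdk4 stood at 13.8, 18.2 and 14.7 CPM in the mutants, against 4.73, 4.61 and 4.15 CPM in the controls (log2 fold change 1.78, SE 0.25). stg, the Cdc25 phosphatase, stood at 9.44, 20 and 7.57 CPM in the mutants, against 2.94, 4.47 and 2.77 CPM in the controls (log2 fold change 1.86, SE 0.36), within a list of 31 with 4 rises and 1 fall (16.1% called). Utx, a histone demethylase, was the rise among 41 chromatin genes, 2 of which were called, at 208, 191 and 202 CPM in the mutants, against 34.4, 84.4 and 93.7 CPM in the controls (log2 fold change 1.50, SE 0.28). The edgeR adjusted p of Cdk4, stg and Utx was 0.00492 or less, and the call of Utx ended in the fit of 12 h alone. Of the ion channels 6 rose and 4 fell of 29 (34.5% called). SK, a calcium-activated potassium channel, stood at 190, 161 and 100 CPM in the mutants, against 277, 349 and 396 CPM in the controls (log2 fold change -1.18, SE 0.25). Itpr, the inositol trisphosphate receptor, stood at 15, 16.3 and 11.8 CPM in the mutants, against 27.2, 25.8 and 31.1 CPM in the controls (log2 fold change -0.96, SE 0.20), with edgeR adjusted p of 0.00871 or less.

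Structural and regulatory lists held further calls in both directions, to be read beside the 15.8% called of all genes. Of the RNA-binding regulators 1 rose and 2 fell of 23 (13% called), and the falls were Imp and Syp, a pair known as opposed temporal factors of neural stem cells. Imp stood at 35.2, 40.5 and 29 CPM in the mutants, against 92.1, 87.4 and 150 CPM in the controls (log2 fold change -1.65, SE 0.30). Syp stood at 35.2, 22.9 and 38.8 CPM in the mutants, against 108, 66.1 and 75.9 CPM in the controls (log2 fold change -1.37, SE 0.23). Both were thus lower in the mutants, without overlap. In the adhesion and septate junction list 3 rose and 5 fell of 45 (17.8% called). mys, the beta subunit of integrins, stood at 1210, 1331 and 829 CPM in the mutants, against 2215, 1857 and 2318 CPM in the controls (log2 fold change -0.92, SE 0.21), and yrt, a FERM protein of epithelial polarity, had 20.4 ± 0.922 CPM in the mutants and 53.5 ± 15.3 CPM in the controls (SD, n = 3 each; log2 fold change -1.39, SE 0.21). vari, a scaffold of septate junctions, stood at 129, 144 and 88.1 CPM in the mutants, against 50.5, 39 and 50.6 CPM in the controls (log2 fold change 1.37, SE 0.21). Among 32 myosin and actin genes 5 rose and 2 fell (21.9% called), with cher, the filamin that crosslinks actin, at 49.8, 44.9 and 32.1 CPM in the mutants, against 7.29, 11.8 and 19.4 CPM in the controls (log2 fold change 1.73, SE 0.38). In the Hippo list 3 rose and 2 fell of 17 (29.4% called), with kibra, an upstream activator of the pathway, at 21.6, 23.6 and 22.4 CPM in the mutants, against 7.29, 8.36 and 13.5 CPM in the controls (log2 fold change 1.22, SE 0.24). The edgeR adjusted p of these 7 genes was 0.0103 or less, and their calls held with any library left out. Of the carriers 5 rose and 1 fell of 32 (18.8% called), of the V-ATPase subunits 2 and 0 of 16 (12.5%), of the heat shock genes 2 and 1 of 20 (15%), and of the tRNA synthetases 0 and 2 of 25 (8%).

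Some rises rested on mutant replicate 1, the library with the highest levels of gut-type transcripts. Mur29B, a mucin-related gene, stood at 121, 9.44 and 0.966 CPM in the mutants, against 0.256, 0.288 and 0.864 CPM in the controls (edgeR adjusted p = 0.0132), and without that library at a log2 fold change of 3.51 in place of 6.57 (adjusted p = 0.0606); without control replicate 3 it was 7.26. MtnA, a metallothionein, stood at 70.3, 10 and 11.6 CPM in the mutants, against 1.92, 1.3 and 6.57 CPM in the controls (edgeR adjusted p = 0.0258), with 1.77 in place of 3.27 (adjusted p = 0.14); its call also ended without control replicate 1 or 2 and in the fit of 12 h alone, and its value without control replicate 3 was 4.24. The carrier Oatp33Eb stood at 60, 12.6 and 2.74 CPM in the mutants, against 1.02, 1.15 and 0.864 CPM in the controls, with 2.90 in place of 4.60, and kept its call (edgeR adjusted p = 0.0471). The gland's own factor fkh, a forkhead protein, stood at 16.6, 6.01 and 5.48 CPM in the mutants, against 3.84, 3.03 and 2.07 CPM in the controls, with 0.93 in place of 1.63 and no call without mutant replicate 1 (edgeR adjusted p = 0.0551) or control replicate 3. TwdlE, a cuticle gene and the called member of the epidermis list, rested instead on mutant replicate 2, at 2.56, 25.6 and 5.32 CPM in the mutants, against 1.79, 1.87 and 0.173 CPM in the controls, with 1.54 in place of 3.07 (edgeR adjusted p = 0.113), and 71.9% of its exon length is shared with the opposite strand. Its call ended without control replicate 3 as well, and those of Mur29B, MtnA, Oatp33Eb and TwdlE with voom. In the fit of 12 h alone the calls of fkh and TwdlE ended. In mutant replicate 1 the gut-type values and the rises of Mur29B, MtnA, Oatp33Eb and fkh moved together, and the part of gut tissue in them was not tested.

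Called genes lay on all major chromosome arms. The share called was 16.9% on 2L, 16.3% on 2R, 16.4% on 3L, 16.4% on 3R and 13.7% on X. On X 66 genes rose (5.24%, against 7.94% of all genes) and 106 fell (8.41%, against 7.87%). On the small chromosome 4 it was 1.32%, 1 of 76 tested genes. Within 0.1 Mb of Eip93F on 3R, 2 of 16 tested genes were called (12.5%), and from 1 to 2 Mb away 20.6% of 131. On X, the dosage compensation RNA lncRNA:roX1, which is made in males, stood at 39.2, 72.8 and 20 CPM in the mutants, against 114, 81.7 and 109 CPM in the controls. Its partner lncRNA:roX2 stood at 15, 25 and 13 CPM in the mutants, against 36.1, 28.4 and 35.3 CPM in the controls. Neither passed the test (edgeR adjusted p = 0.112 and 0.143), though the groups did not overlap. Without mutant replicate 2 roX1 passed as lower (log2 fold change -1.81, edgeR adjusted p = 0.0361), as did roX2 without replicate 3 of the 14 h controls (-0.91, adjusted p = 0.0391). The labels give no sex, and its part in the X-linked calls was not tested. In 47 places at least 3 neighbouring tested genes were called in one direction, 159 of the 1199 called genes in all. The number of such runs to be expected where 15.8% of all genes are called was not worked out. The longest run held 7 genes higher in mutants on 3L, PGRP-SB2 among them. Mgat3 lay in a run of 4 lower genes with its neighbours Alg7, Rsph1 and CG16974, MED16 in one of 4 that includes CG11170 and CG11275, and Dgk next to CG30377, which was lower as well. These neighbours were named after their calls were seen.

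The genotype difference at 14 h was called for 1153 genes (15.2%), 629 higher (8.29%) and 524 lower (6.91%). It compares libraries whose means the 12 h contrast does not use. Both times share the fit and its estimate of the spread, so their calls are not independent. Of the genes called at 12 h, 273 were higher at both times, which is 45.3% of the 12 h and 43.4% of the 14 h rises, and 232 were lower at both, 38.9% and 44.3%. Calls of opposite direction numbered 6 and 10. Leaving out 1 library put the 14 h count between 701 and 1587, with 701 to 767 when the library was a 14 h control. Over the 1199 genes the log2 fold changes of the 2 times had a Pearson r of 0.824, a description across genes that share libraries and are not independent. These genes were also selected by their 12 h difference, so the value does not hold for all genes tested. The difference of the genotype effect between the times was itself called for 206 genes (2.72%), of which 47 had been called higher and 59 lower at 12 h. Of the 59, the difference was positive in 53, which counts smaller falls and also reversals such as Plc21C (-1.52 at 12 h and 1.25 at 14 h). The count of differences was 430 without replicate 1 of the 12 h controls, 105 to 129 without any 1 of the 14 h controls, and 121 and 133 without replicates 2 and 3 of the 14 h mutants.

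**Figure D5:**
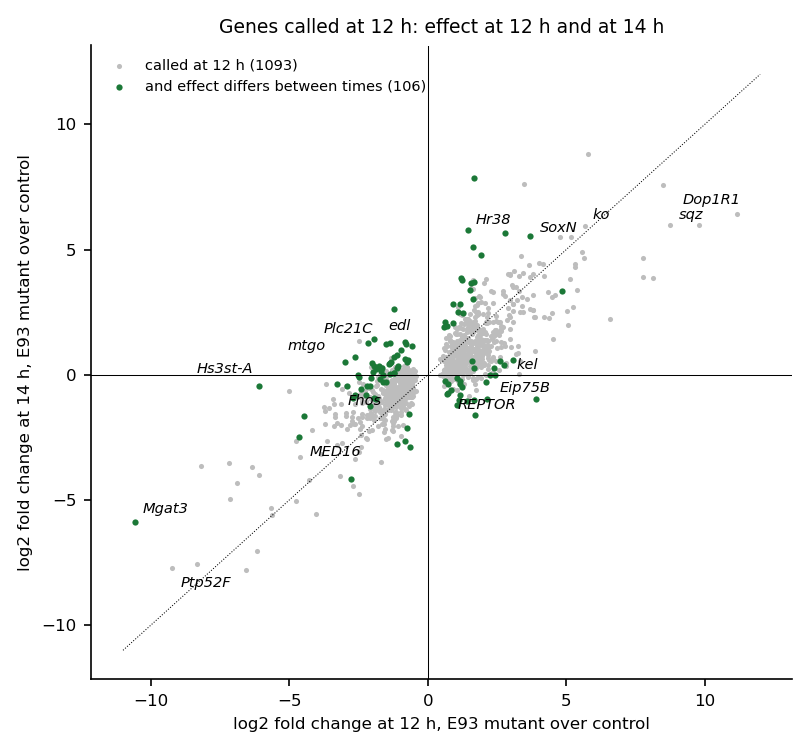
Each point is 1 of the 1199 genes called at 12 h, placed by its log2 fold change of E93 mutants over controls at 12 h (horizontal) and at 14 h (vertical), with the 106 genes whose effect differed between the times in green and the line of equality dotted. Most points keep their sign, while Hs3st-A, Fhos and mtgo fall to near or above 0 at 14 h and Hr38 and SoxN rise above the line.

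For Fhos the fold change of -3.26 at 12 h compared with -0.36 at 14 h, where the levels were 366, 357 and 298 CPM in the 14 h mutants, against 433, 425 and 453 CPM in the 14 h controls (difference 2.89, SE 0.25, edgeR adjusted p = 0.000132). The levels of Hs3st-A at 14 h were 7.95, 13.1 and 12.5 CPM in the 14 h mutants, against 14.9, 17.9 and 12.5 CPM in the 14 h controls, and the groups overlapped (difference 5.65, SE 0.67, edgeR adjusted p = 0.000669). In both genes the controls were lower at 14 h than at 12 h and the mutants higher. Mgat3 was called at both times with a smaller effect at 14 h (-5.86, difference 4.72, SE 0.67, edgeR adjusted p = 0.00232). Plc21C changed direction, to 1.25 at 14 h, with 26.7, 36.3 and 35.7 CPM in the 14 h mutants, against 12.6, 11.8 and 17.2 CPM in the 14 h controls (difference 2.77, SE 0.38, edgeR adjusted p = 0.00205). In the other direction Hr38 rose by 5.78 at 14 h, with 139, 125 and 107 CPM in the 14 h mutants, against 2.08, 2.19 and 2.44 CPM in the 14 h controls (difference 4.34, SE 0.42, edgeR adjusted p = 0.000193). Eip75B, higher by 2.23 at 12 h, stood at 178, 172 and 164 CPM in the 14 h mutants, against 182, 191 and 145 CPM in the 14 h controls (difference -2.24, SE 0.52, edgeR adjusted p = 0.0384), and kel, higher by 2.74 at 12 h, at 32, 33.6 and 39.7 CPM in the 14 h mutants, against 29.3, 26.8 and 24.4 CPM in the 14 h controls (difference -2.35, SE 0.25, edgeR adjusted p = 0.00036). The Hr38 difference was thus larger at 14 h, and Eip75B and kel did not pass the test there. Ptp52F, Dgk, Ppat-Dpck, ko and Sdr were called in the same direction at both times, with no call for a difference between them.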

How the data were processed

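Total RNA of salivary glands was sequenced in 12 libraries, 3 for each genotype at 12 h and at 14 h. The deposited values are raw counts per FlyBase gene, with 1 column per library; per the submitters' processing notes cutadapt 1.16, STAR 2.7.6a, featureCounts 1.6.3, DESeq2 1.30.1 and build BDGP6 were used, while the release of the annotation, whether strand was used and how reads with several matches were handled are not given in the sources used here. Names and positions came from the Ensembl annotation of BDGP6, which matched 17710 of 17807 genes and left 97 unmatched. A filter on low counts (filterByExpr over the 4 groups) and TMM scaling came before a fit in edgeR 4.0.16 (R 4.3.3) of 4 group means over all 12 libraries, which leaves 8 residual degrees of freedom; the standard error is the log2 fold change divided by the root of F. Errors of CPM are SD over 3 libraries. Alternatives used DESeq2 1.42.0, limma 3.58.1 voom, other scaling, filters, thresholds and sets of libraries. The fit was tested on simulated data.

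The members and gene lists were chosen with earlier results of these data known. Genes were named by rule: Eip93F; the 20 largest rises and falls by fold and the 10 largest by CPM among called genes without overlap, with at least 10 CPM in the higher group and a settled symbol; up to 4 called members per pathway list; all members of both hormone lists; and up to 3 called members, or else the most abundant one, per marker list. Not all are printed. Added to these were sage, CrebA, eyg, mex1, Myo31DF, ttk, GstE12, CG15406, CG31760, the roX RNAs and the neighbours of Mgat3, MED16 and Dgk. The planned count of promoter motifs was not run, and no sequence is printed.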

Additional observations from a re-analysis of the deposited data

Results flagged for a closer look

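The effect of genotype differed between the times, by the interaction term of edgeR at an adjusted p under 0.05, for 206 of the 7584 genes tested. The differences below are the log2 fold change of mutants over controls at 14 h minus that at 12 h. Among genes lower in mutants at 12 h they were positive, meaning a smaller fall or a rise at 14 h, for Hs3st-A (5.65), Mgat3 (4.72), mtgo (3.49), Fhos (2.89), Plc21C (2.77), C1GalTA (2.52), CG11275 (2.47), plum (2.47), spz (2.38), MED16 (2.13), Imp (1.92), klar (1.75) and Lsd-2 (1.66). Among genes higher in mutants at 12 h the rise was larger at 14 h for Hr38 (4.34), Eig71Ec (3.47), PGRP-SB2 (2.04), SoxN (1.87) and mmy (1.16). It was smaller at 14 h for Sarm (-2.50), kel (-2.35), Eip75B (-2.24), REPTOR (-1.69) and Sugb (-1.50). Eip78C, not called at 12 h, had a difference of -1.16.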

How the results depend on the processing

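The count of genes called at 12 h (1199, of which 602 higher and 597 lower) lay between 1034 with voom and 1446 with DESeq2 under every other tool, scaling, filter and dispersion setting tried. The median log2 fold change of all genes lay between -0.05 and 0.02 throughout. The count was 459 (206 higher, 253 lower) with the 6 libraries of 12 h alone, a fit with fewer samples, and 520 (251 and 269) at an adjusted p under 0.01. At least 2-fold changes numbered 351 among the lower genes. Leaving out 1 library gave 798 to 1185 genes (402 to 548 higher, 383 to 647 lower), 701 to 1587 at 14 h, and 105 to 430 for the difference between the times. The following 3 settings were chosen after seeing the data. Without the libraries of each time with the most gut-type transcripts (12 h mutant replicate 1 and 14 h mutant replicate 2) 676 genes were called (358 and 318), and 84 for the difference. Without replicate 1 of both 12 h groups 395 were higher, and 422 differed between the times. Without all of these libraries 792 were called, 373 of them higher. With DESeq2 338 differed between the times. The cause of these shifts was not tested. The labels number replicates alike in each group. Same-numbered libraries deviated from their group means with correlations of -0.257 to 0.238 over 18 pairs. Differently numbered libraries were not compared in this way, so whether the numbers pair libraries stays unsettled. With the replicate number as a block 1041 genes were called over all 12 libraries, and over the 6 libraries of 12 h 184 (94 and 90). In that last fit the call of Eip93F ended, at 1.24 with an adjusted p of 0.0857; its value was 0.97 to 1.39 with 1 library left out. None of the 128 named called genes followed through the refits changed sign in 3319 refitted values, and 52 stayed called in every one. Of 24 named genes not called, 16 were not called under any setting, and of 55 list medians 47 moved by less than the spread between libraries. Depth left genes under about 0.43 CPM at the limit of a count of 0.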
